A study of Mus musculus with 12 samples.

Results

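The 8 genes Sik1, Sik2, Sik3, Plk2, Plk3, Pim1, Pim2 and Pim3, which encode serine/threonine kinases of the salt-inducible, polo-like and PIM families, were taken by symbol from the expression estimates of 20989 loci in mouse auditory cortex. Each of the 8 had 1 locus, with an estimate in all 12 libraries. Auditory cortex was dissected from acute coronal slices of 6 C57bl6/J mice that were 4-week old, after cutting each slice along its midline. Slices of both groups recovered for 15 min in choline-based dissection buffer and rested for 45 min in artificial cerebrospinal fluid (aCSF). The control hemisphere then spent 1 h in fresh aCSF. The other hemisphere spent the same time in aCSF with a pharmacological cocktail that drives neuronal activity. By the study's methods, both hemispheres then rested for a further 1 h in aCSF without the cocktail before dissection, although the labels give no such rest. The cocktail held bicuculline methiodide at 50 µM, which blocks GABA-A receptors, the neuromodulators norepinephrine, dopamine and serotonin at 100 µM each, the cholinergic agonist carbamoylcholine at 50 µM, and ascorbic acid at 40 µM. Each group therefore held 6 libraries, 1 per mouse, and both hemispheres of a mouse formed a pair. A whole dissected cortex was sequenced, so the values are averages over neurons, glia and vessels of a cut slice, at a single time.

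Salt-inducible kinases belong to the AMPK-related kinases. LKB1 (Stk11) switches them on, protein kinase A holds them in check, and they keep CRTC coactivators of CREB and class IIa histone deacetylases in the cytoplasm. Transcription of Sik1 is itself a known CREB response, whereas Sik2 and Sik3 are known mainly for control of the protein. Among the polo-like kinases, Plk2 is induced in neurons by synaptic activity and weakens excitatory synapses by acting on spine proteins such as SPAR (Sipa1l1), and Plk3 is an early response gene to mitogens and stress. PIM kinases are constitutively active, so that their activity is set largely by how much transcript and protein a cell makes, classically downstream of JAK and STAT signalling. They phosphorylate proteins of survival, cell cycle and translation such as BAD, p27 and 4E-BP1.

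In the mouse genome (build mm10), Sik1 lies at chr17:31844250-31855792 on the minus strand, with a RefSeq transcript of 14 exons and 4521 nt. Sik2 lies at chr9:50892801-51009073 on the minus strand (16 exons, 3552 nt), and Sik3 on the same chromosome at chr9:46012820-46224194 on the plus strand (25 exons, 6287 nt). Plk2 lies at chr13:110395044-110400843 on the plus strand (14 exons, 2800 nt) and Plk3 at chr4:117128655-117133952 on the minus strand (15 exons, 2378 nt). Pim1 lies at chr17:29491045-29495459 (6 exons, 2698 nt), Pim2 at chrX:7878306-7883432 (6 exons, 1113 nt) and Pim3 at chr15:88862194-88865726 (6 exons, 2427 nt), each on the plus strand. Exons of genes on the other strand overlapped those of Sik2 (Ppp2r1b, 589 nt), Plk3 (Tctex1d4, 84 nt) and Pim1 (Gm26885, 468 nt). No locus carried the symbol Gm26885, so its level could not be examined. The reads carried strand information, but the strand setting used in the estimation is not given in the sources used here.

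RefSeq promoter windows of the GRCm38.p6 build, 250 bases upstream of the transcript start, were matched for 7 of the 8 genes (all but Sik1), with an entry for each of 2 starts of Pim1. They were searched on both strands for the CRE (TGACGTCA, the site of CREB), its short form (TGACG), the AP-1 site (TGAGTCA), the STAT site (TTCNNNGAA), the EGR site (GCGTGGGCG) and the CArG box of SRF. These motifs were found in 1.55%, 17.8%, 4.46%, 7.02%, 0.536% and 1.47%, respectively, of all 32851 windows of that length. Those shares are not matched for GC content, whose median over all windows was 52.4%. It was 68.4% in the window of Plk2, 60% in that of Plk3 and 74% in that of Sik3. The window of Plk2 held a CRE from 62 to 55 bases before the start, and its 2 short forms are those within the CRE. Plk3 had 2 separate short forms, at 132 to 128 and 63 to 59 bases before the start. Sik3 had 3 short forms, at 133 to 129, 116 to 112 and 57 to 53 bases. None of the motifs was found in the windows of Sik2, Pim1, Pim2 and Pim3. The 2 Pim1 windows end at 29490784 and 29493084, and neither adjoins the Pim1 start of 29491045 given above. Bases directly before that start were therefore not all searched. The Plk3 window begins at 117133964 and does not adjoin the gene end of 117133952, so its positions count from another start. The 3 windows with matches are printed from 5′ to 3′ along the transcribed strand with the matches in capitals, followed by that of Pim3, the gene of the PIM family whose transcript rose, as a window without these letters. A match describes the letters of a window and does not show that a factor binds there.

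Plk2, chr13:110394794-110395043, plus strand: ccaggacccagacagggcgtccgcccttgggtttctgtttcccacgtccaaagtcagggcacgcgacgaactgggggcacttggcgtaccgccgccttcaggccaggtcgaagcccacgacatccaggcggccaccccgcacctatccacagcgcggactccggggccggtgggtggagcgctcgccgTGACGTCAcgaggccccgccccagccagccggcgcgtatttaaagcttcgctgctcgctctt
Plk3, chr4:117133964-117134213, minus strand: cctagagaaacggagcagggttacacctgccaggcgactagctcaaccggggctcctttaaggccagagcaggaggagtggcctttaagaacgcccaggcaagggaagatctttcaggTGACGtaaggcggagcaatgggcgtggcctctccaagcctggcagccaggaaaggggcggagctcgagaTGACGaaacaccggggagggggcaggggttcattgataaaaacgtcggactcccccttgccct
Sik3, chr9:46012570-46012819, plus strand: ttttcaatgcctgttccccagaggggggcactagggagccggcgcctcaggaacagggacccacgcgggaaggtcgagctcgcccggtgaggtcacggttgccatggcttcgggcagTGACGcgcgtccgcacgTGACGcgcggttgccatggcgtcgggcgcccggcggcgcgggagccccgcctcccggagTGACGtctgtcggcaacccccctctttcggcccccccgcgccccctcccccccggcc
Pim3, chr15:88861944-88862193, plus strand: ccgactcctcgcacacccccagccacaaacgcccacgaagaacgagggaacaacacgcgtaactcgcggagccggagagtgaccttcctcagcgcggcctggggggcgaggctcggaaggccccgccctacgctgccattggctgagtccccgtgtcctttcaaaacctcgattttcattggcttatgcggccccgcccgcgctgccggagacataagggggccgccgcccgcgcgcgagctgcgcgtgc

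Levels are given as FPKM, reads scaled by transcript length and by the mapped reads of the library, which can be compared between genes because they are per length. The reads recovered per library numbered 10601067 to 19768881 in the control group and 13544813 to 17643462 in the cocktail group. The control library of mouse 1 stood apart. It was the deepest, its FPKM summed over loci was the lowest (290155, against 306085 to 321759 in the other libraries), and its FPKM per recovered read spread more widely between loci than in any other library. Values without this mouse are given where they moved most. Markers of excitatory neurons summed to between 1315 and 1453 FPKM in control and between 1245 and 1426 in cocktail libraries, and those of oligodendrocytes to between 1735 and 2273 and between 2017 and 2347. Markers of blood did not exceed 2.76 FPKM and those of choroid plexus did not exceed 1.78 FPKM in sum in any library. The 10 marker lists examined included inhibitory neurons, astrocytes, microglia and endothelial cells. Of their genes with a mean FPKM of 1 or more, 0 were called between groups by limma or limma-voom, and 0 had an unadjusted p under 0.05. Not tested were 3 genes of blood, 2 of choroid plexus and 1 of striatum. Log2 fold changes lay above 0 for 5 of 5 inhibitory and 2 of 5 excitatory neuron markers. They did so for 4 of 4 oligodendrocyte, 4 of 5 astrocyte, 3 of 4 endothelial and 3 of 6 microglia markers. Of the markers tested, 1 of 1 for choroid plexus, 0 of 2 for striatum and 1 of 3 for thalamus lay above 0. So did 6550 of all 12032 loci with a mean FPKM of 1 or more.

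In control slices the order of levels was Plk2, Pim3, Sik3, Pim2, Plk3, Sik2, Sik1 and Pim1, from 100 ± 9.43 FPKM for Plk2 to 7.62 ± 0.841 for Pim1 (SD, n = 6). Plk2 thus stood far above the next gene, Pim3, at 30.5 ± 4.93 FPKM. Neighbours in this order were compared within libraries by exact two-sided permutation of signs (sign-flip test), whose smallest possible p with 6 libraries is 0.03125. Plk2 over Pim3, Sik3 over Pim2 and Sik1 over Pim1 reached it, each with the same order in 6 of 6 libraries, but adjusted over the 7 neighbouring pairs the p was 0.0729. The other 4 pairs did not differ beyond their spread. In cocktail-treated slices the order was Plk2, Pim3, Plk3, Sik3, Pim2, Sik1, Sik2 and Pim1. There 5 of the 7 neighbouring pairs reached the same smallest p of 0.03125 (exact permutation test, adjusted p = 0.0438, the same order in 6 of 6 libraries). Plk3 and Sik3 (adjusted p = 0.938) and Sik1 and Sik2 (adjusted p = 0.146) did not reach it. The adjusted p was lower than in control only because more pairs shared the smallest p, so it shows no difference between the groups.

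**Figure D1:**
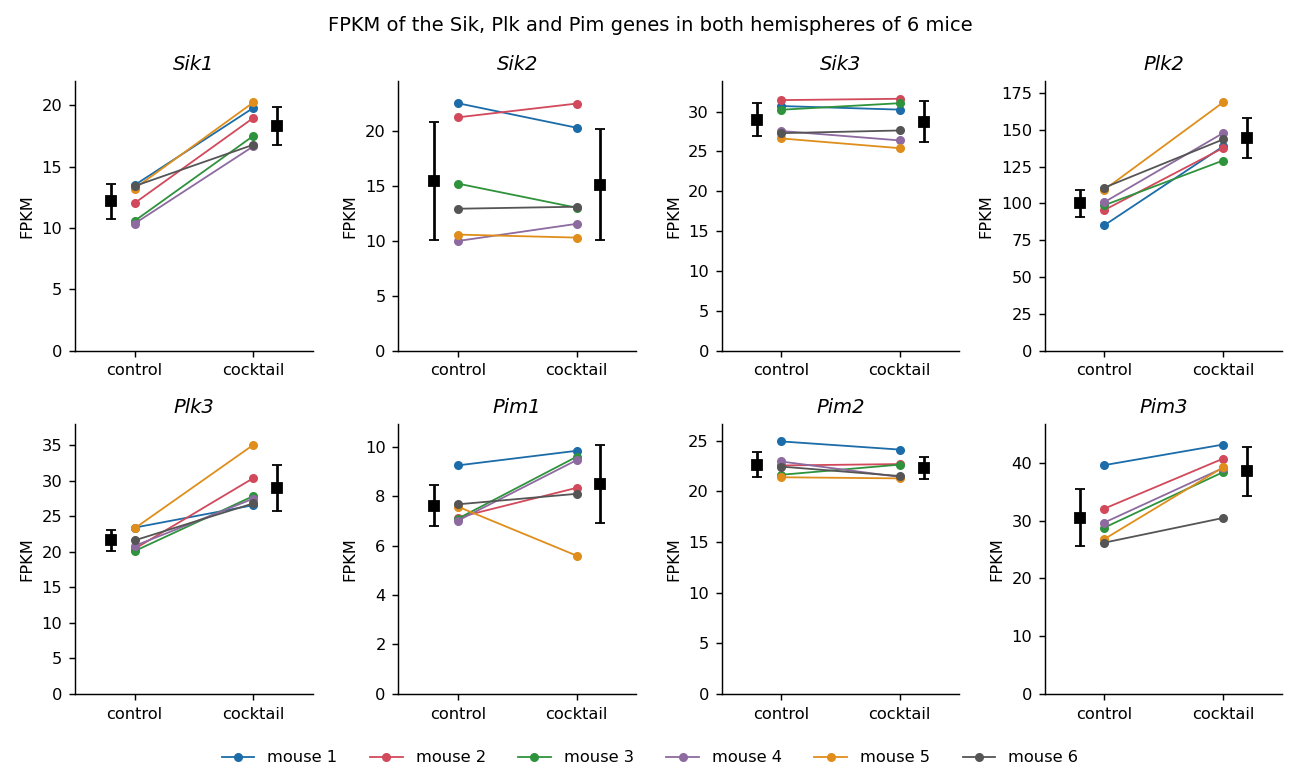
FPKM (vertical axes, from 0) of the 8 genes in the control and cocktail hemisphere of each of 6 mice, with points of the same mouse joined and squares with bars giving the mean ± SD of each group. Sik1, Plk2, Plk3 and Pim3 were higher in the cocktail hemisphere of 6 of 6 mice, whereas Sik2 and Sik3 were higher in 3 of 6 mice and Pim2 in 2.

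After 1 h of cocktail and the rest that followed it by the study's methods, transcripts of 1 gene of the SIK family, of both polo-like genes and of 1 gene of the PIM family were higher than in the control hemisphere. Of the 8 genes, 4 were higher (Sik1, Plk2, Plk3 and Pim3) and 0 were lower in a fit over all 12032 loci whose mean FPKM was 1 or more, in which 1.5% of loci were called, 1.22% higher and 0.274% lower. The fit was limma on log2(FPKM + 1) with the mouse as a block, and all adjusted p-values of single genes come from it and are adjusted over all loci tested. Fold changes on this scale understate those of low genes. For Sik1, Plk2 and Plk3 the groups did not overlap in FPKM, with every cocktail library above every control library, as for 0.715% of loci. All 4 were higher in the cocktail hemisphere of 6 of 6 mice, as for 3.64% of loci. At an unadjusted p under 0.05, and with limma-voom on recovered reads, 0 of the 8 genes were lower as well. The median log2 fold change over all loci tested was 0.0076. In whole tissue, a change in the number of cells that express a gene cannot be told apart from a change of its RNA per cell.

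Sik1, the feedback kinase of the CREB pathway, ranged from 10.4 to 13.5 FPKM in control (median 12.6) and from 16.7 to 20.2 in cocktail libraries (median 18.2), with 623 to 1563 reads behind each value. The lowest cocktail library thus lay above the highest control library. The mean rose from 12.2 ± 1.43 to 18.3 ± 1.55 FPKM (SD, n = 6), with a log2 fold change of 0.56 (SE 0.056, adjusted p = 0.000191, limma), which is 1.47-fold and rank 51 among the rises of all loci tested. Within mice the rise was smallest in mouse 6 (0.30) and largest in mouse 3 (0.68).

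The other salt-inducible kinase genes were not called. Sik2, best known for its role in metabolism and in control of CRTC proteins, ranged from 10.01 to 22.6 FPKM in control (median 14.1) and from 10.3 to 22.5 in cocktail libraries (median 13.1). The groups overlapped almost completely, and the cocktail hemisphere was higher in 3 of 6 mice. The log2 fold change was -0.02 (SE 0.058, 95% confidence interval -0.14 to 0.11, adjusted p = 0.972, limma). Sik3, which shares the substrates of the other salt-inducible kinases, ranged from 26.6 to 31.4 FPKM in control (median 28.9) and from 25.4 to 31.6 in cocktail libraries (median 28.9). Here, too, the groups overlapped, with 3 of 6 mice higher. The log2 fold change was -0.01 (SE 0.042, 95% confidence interval -0.11 to 0.08, adjusted p = 0.967, limma).

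Sik2 varied between mice far more than between treatments. In mice 1 and 2 it lay between 20.3 and 22.6 FPKM in all 4 libraries, and in the other mice between 10.01 and 15.2. Both hemispheres of a mouse were thus alike, and no library of the other mice reached those of mice 1 and 2. The coefficient of variation over control libraries was 34.8%, larger than that of 99.8% of the 6099 loci averaging at least 10 FPKM, whose median was 9.15%. For the other 7 genes it ranged from 5.57% (Pim2) to 16.1% (Pim3). Ppp2r1b, whose exons overlap those of Sik2 on the other strand, lay between 4.83 and 6.57 FPKM in control and between 4.66 and 6.15 in cocktail libraries.

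Because a call in one gene and not in its relative does not show that they differ, the responses were compared within mice for the 7 pairs of relatives, with the same exact permutation test and p-values adjusted over the 7 pairs. Sik1 rose more than Sik2 in 6 of 6 mice, by a mean of 0.57 on the log2 scale (0.28 to 0.89 over mice, exact p = 0.03125, adjusted p = 0.0547). The difference between Sik1 and Sik3 was also 0.57 (0.29 to 0.70, 6 of 6 mice, exact p = 0.03125, adjusted p = 0.0547). Each raw p is the smallest that 6 mice allow, and neither difference passed after adjustment. With p-values bounded in this way, the adjusted p depends on how many of the 7 pairs share the smallest p. It does not measure the size of a difference. Between Sik2 and Sik3 the mean difference was -0.002, with -0.25 to 0.25 over mice (exact p = 1).

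Plk2, the activity-induced polo-like kinase of dendritic spines, was the most abundant of the 8 transcripts. It ranged from 85.1 to 111 FPKM in control (median 99.7) and from 129 to 169 in cocktail libraries (median 141), on 3964 to 9023 reads. Again no cocktail library fell within the control range. The mean rose from 100 ± 9.43 to 144 ± 13.5 FPKM (SD, n = 6), a log2 fold change of 0.52 (SE 0.052, adjusted p = 0.000154, limma) or 1.44-fold, at rank 55. The rise was largest in mouse 1 (0.70), whose control library was the lowest, and smallest in mouse 6 (0.37). Without mouse 1 the log2 fold change was 0.49, still called (adjusted p = 0.000207, limma).

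Plk3, at a much lower level than Plk2, lay between 20.1 and 23.4 FPKM in control (median 21.2) and between 26.5 and 35.0 in cocktail libraries (median 27.6), on 481 to 1178 reads. The groups were separate. The mean rose from 21.6 ± 1.44 to 29.0 ± 3.25 FPKM (SD, n = 6), with a log2 fold change of 0.41 (SE 0.058, adjusted p = 0.00276, limma), which is 1.32-fold and rank 93. Mouse 1 showed the smallest rise (0.18) and mouse 5 the largest (0.57), and without mouse 1 the log2 fold change was 0.45. Plk2 rose more than Plk3 in 4 of 6 mice, by a mean of 0.12 (-0.07 to 0.52 over mice, exact permutation p = 0.219, adjusted p = 0.306), and by 0.04 without mouse 1, so a difference between the responses of the polo-like genes was not shown. Tctex1d4, whose exons overlap those of Plk3 on the other strand, did not exceed 0.232 FPKM in any library.

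Among the PIM genes, Pim3 was the most abundant and the only one called in FPKM. It ranged from 26.2 to 39.6 FPKM in control (median 29.2) and from 30.5 to 43.2 in cocktail libraries (median 39.2), on 606 to 1777 reads. The groups overlapped, because mouse 1 was highest and mouse 6 lowest in both, yet the cocktail hemisphere was higher in 6 of 6 mice. The mean rose from 30.5 ± 4.93 to 38.5 ± 4.30 FPKM (SD, n = 6), with a log2 fold change of 0.33 (SE 0.056, adjusted p = 0.00989, limma), which is 1.26-fold and rank 137. Within mice it ranged from 0.12 in mouse 1 to 0.53 in mouse 5, and without mouse 1 the log2 fold change was 0.37 (adjusted p = 0.00208, limma). The call depended on the pairing and on single mice: the adjusted p was 0.209 without the block, 0.0556 without mouse 3 and 0.0573 without mouse 4, and limma-voom on recovered reads gave 0.0911.

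Pim2, the X-linked member, ranged from 21.4 to 24.9 FPKM in control (median 22.5) and from 21.3 to 24.1 in cocktail libraries (median 22.1). It was the least variable of the 8 genes in control and was higher with cocktail in 2 of 6 mice. The log2 fold change was -0.02 (SE 0.044, 95% confidence interval -0.12 to 0.07, adjusted p = 0.943, limma). Pim3 rose more than Pim2 in 6 of 6 mice, with a Pim2 minus Pim3 difference of -0.35 (-0.54 to -0.17 over mice, exact p = 0.03125, adjusted p = 0.0547).

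Pim1, the family's classical cytokine-induced gene, was the least abundant of the 8, from 7.01 to 9.25 FPKM in control (median 7.36) and from 5.59 to 9.84 in cocktail libraries (median 8.90), on 172 to 419 reads. It was higher with cocktail in 5 of 6 mice, by 0.07 to 0.39, and lower by 0.38 in mouse 5, whose cocktail library held the lowest value of all 12. The log2 fold change was 0.12 (SE 0.089, 95% confidence interval -0.07 to 0.32, adjusted p = 0.818, limma), and it was not called with any mouse left out, at 0.22 without mouse 5 (adjusted p = 0.252) and 0.07 without mouse 3 or mouse 4 (adjusted p = 0.938 and 0.971). The value of mouse 5 depended on the unit. It rested on 289 reads, which is 18.6 RPM (reads scaled to the library total) against 17.2 in the control hemisphere, but its FPKM per read was 0.689 of the gene's median over libraries. Only 3 of 10964 loci with at least 50 reads in every library were that low or lower in this library.

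In RPM, a scale added after seeing the data, Pim1 rose in 6 of 6 mice, from 17.3 ± 1.99 to 21.0 ± 2.82 (SD, n = 6), by a mean of 0.26 on the log2 scale (exact sign-flip permutation p = 0.03125, not adjusted over genes). Limma-voom on the same reads gave a log2 fold change of 0.28 with an adjusted p of 0.246. Pim1 was therefore not called by any fit adjusted over all loci. On the same scale Sik1 rose by 0.53, Plk2 by 0.49 and Plk3 by 0.35 (each with the smallest exact permutation p of 0.03125, 6 of 6 mice), and Pim3 by 0.32 in 5 of 6 mice (exact p = 0.0625). Mouse 1 gave Plk3 a difference of 0.01 and Pim3 one of -0.01 in RPM. Sik2 (-0.03), Sik3 (-0.07) and Pim2 (0.00297) gave exact permutation p-values between 0.1875 and 0.90625. Pim3 rose more than Pim1 in 6 of 6 mice in FPKM (Pim1 minus Pim3, -0.21, exact p = 0.03125, adjusted p = 0.0547), but the difference was -0.07 without mouse 5 and -0.06 in RPM (adjusted p = 0.63), so a difference was not shown. Pim1 minus Pim2 was 0.15 in FPKM (exact p = 0.28125, adjusted p = 0.328), 0.08 without mouse 4, 0.25 without mouse 5, and 0.26 in RPM (adjusted p = 0.0547).

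**Figure D2:**
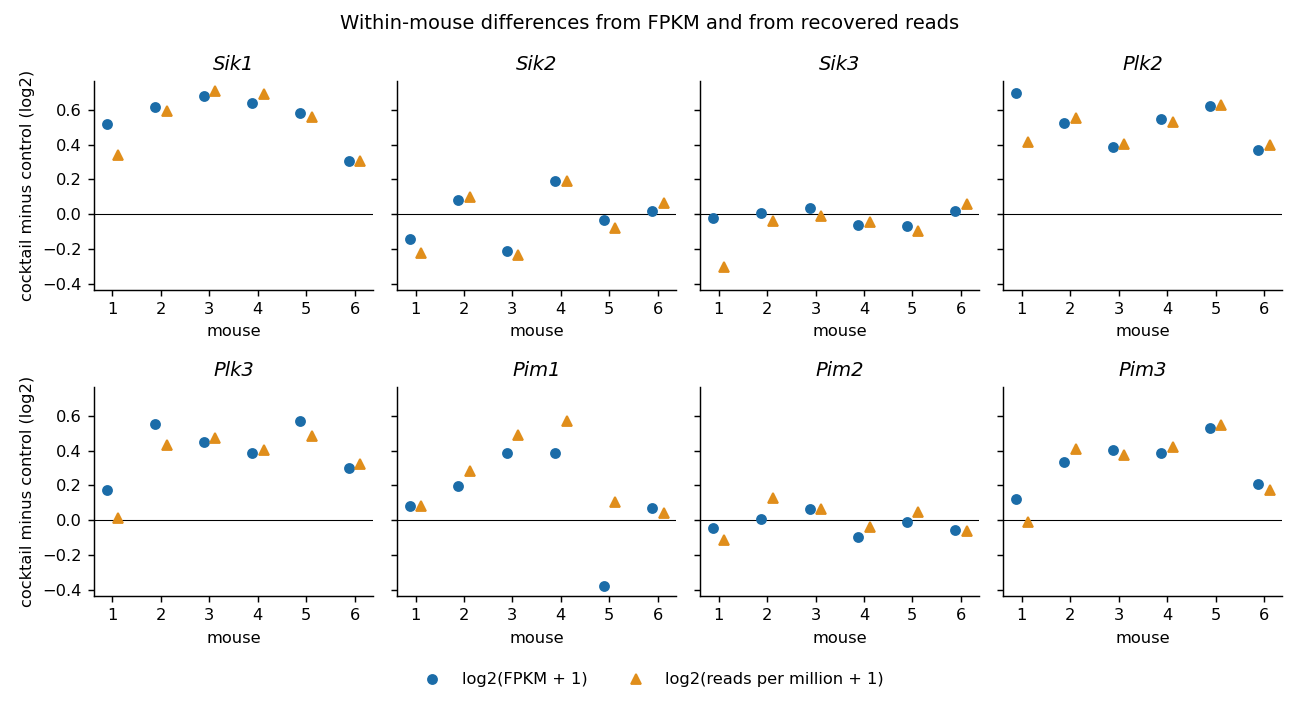
Within-mouse difference between the cocktail and control hemisphere (vertical axes, log2 scale) for each of 6 mice (horizontal axes), computed from FPKM (circles) and from recovered reads as RPM (triangles). The units part for Pim1 in mouse 5, at -0.38 and 0.10, and for several genes in mouse 1, among them Sik3 at -0.02 and -0.30.

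**Figure D3:**
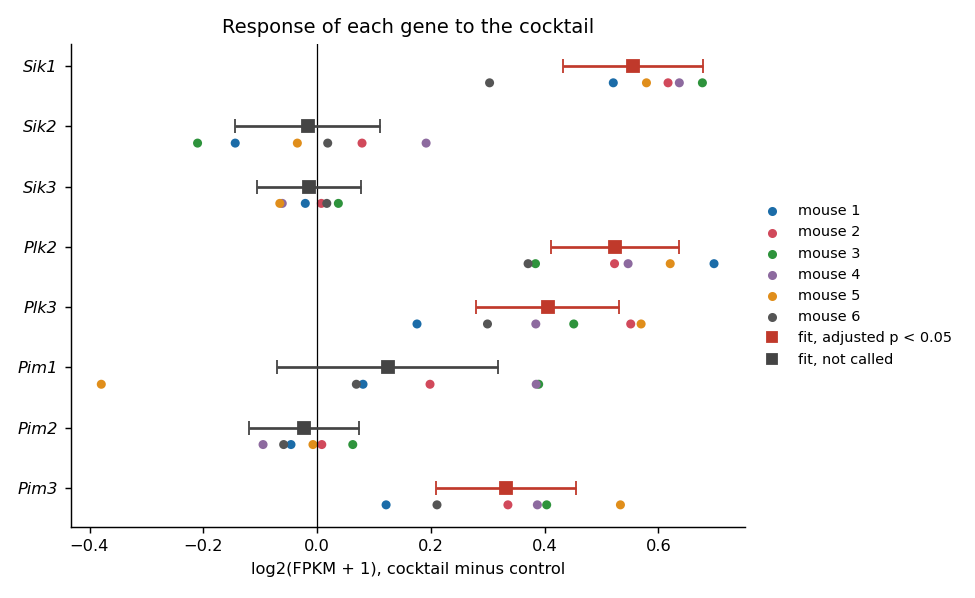
Log2 fold change of each gene on log2(FPKM + 1), cocktail against control, as the limma estimate with its 95% confidence interval (squares with bars, red where the adjusted p is under 0.05) and as the difference within each of 6 mice (circles). The intervals of Sik1, Plk2, Plk3 and Pim3 lie above 0, and those of the other 4 genes include 0.

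The makeup of each family was then described by the share of its summed FPKM that each gene took. Sik1 made up 21.7% ± 3.20 of the SIK total in control and 29.7% ± 3.49 in cocktail libraries (SD, n = 6), a gain of 7.98 percentage points in 6 of 6 mice, while the share of Sik3 changed by -5.22 points. In the PIM family the share of Pim3 went from 50.0% ± 2.58 to 55.5% ± 2.86 (5.51 points, 6 of 6 mice higher) and that of Pim2 changed by -5.18 points. The gains of Sik1 and Pim3 each had an exact sign-flip permutation p of 0.03125, the smallest that 6 mice allow. Adjusted over 7 shares it was 0.0547. Shares of a family sum to 100%, so the lower shares of Sik3 and Pim2, whose own levels had log2 fold changes of -0.01 and -0.02, are the other side of these gains and no separate result. The share of Sik2 changed by -2.76 points and that of Pim1 by -0.33 points. Plk2 took 82.2% of the polo-like sum before and 83.2% after, a change of 1.09 points (exact permutation p = 0.3125, adjusted p = 0.365) that was 0.21 points without mouse 1. Summed over genes, the SIK total was 1.10-fold, the polo-like total 1.42-fold and the PIM total 1.14-fold that of control, each higher in 6 of 6 mice. Sik1 moved from below Sik2 to above it in the order of means, although in neither group did the 2 genes differ beyond their spread.

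**Figure D4:**
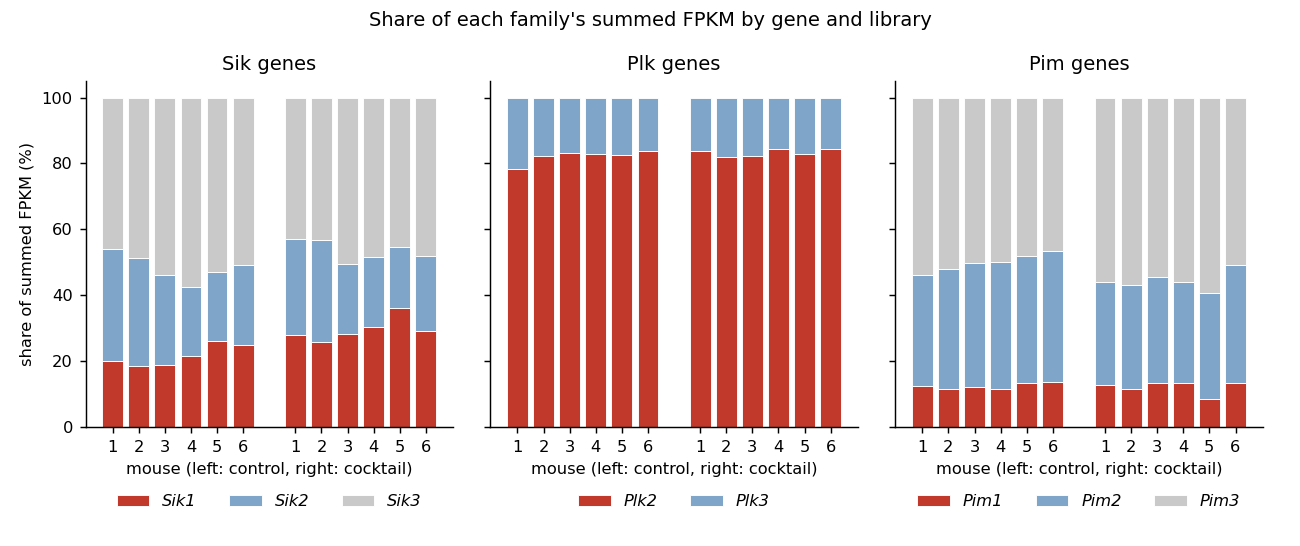
Share of the summed FPKM of the Sik, Plk and Pim genes (vertical axis, percent) in each of 12 libraries, with the 6 control libraries on the left and the 6 cocktail libraries on the right of each panel, numbered by mouse. The Sik1 segment grows from between 18.6% and 26.2% to between 26.0% and 36.2%, whereas the Plk2 segment stays between 78.4% and 84.3%.

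Genes of the surrounding pathways were examined in 5 lists. Of 22 regulators and targets of salt-inducible kinases, all tested, 0 were called in either direction by limma or limma-voom and 2 were lower at an unadjusted p under 0.05 (Hdac7 and Crtc1), as were 2.8% of all loci tested, with a median log2 fold change of -0.004. This list held LKB1, its partners, the subunits of protein kinase A, the CRTC coactivators, class IIa histone deacetylases, CREB and the MEF2 factors. Its smallest p belonged to the histone deacetylase gene Hdac7, at 11.4 ± 1.13 FPKM in control and 10.4 ± 1.41 in cocktail libraries (SD, n = 6), with a log2 fold change of -0.13 (adjusted p = 0.522, limma). Of 11 other kinases activated by LKB1, 10 were tested and 0 were called by either tool, with 1 lower at an unadjusted p under 0.05 and a median of -0.03. Nuak1, a kinase of axon branching, had the smallest p, with 21.5 ± 2.33 FPKM in control and 19.5 ± 2.56 in cocktail libraries and a log2 fold change of -0.13 (adjusted p = 0.430, limma). Nuak2 was under the filter on low values, at 0.559 FPKM in control and 0.814 in cocktail libraries, and was not tested. It was higher in the cocktail hemisphere of 6 of 6 mice, as were 3.64% of the loci above the filter.

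Of 11 genes for other polo-like kinases and substrates or partners of PLK2, 9 were tested, 0 were called by either tool, 0 had an unadjusted p under 0.05 and the median was 0.006. Sipa1l1, which encodes SPAR, gave a log2 fold change of -0.05 (adjusted p = 0.856, limma). Plk1 and Plk4 were under the filter. Of 14 upstream genes and substrates of PIM kinases, 13 were tested, 1 was called higher and 0 lower by limma, and 0 were called by limma-voom, with a median of -0.01. At an unadjusted p under 0.05, 2 were higher (5.24% of all loci) and 1 lower. The lower one, Eif4ebp1, which encodes 4E-BP1, lay at 3.02 ± 0.925 FPKM in control and 2.12 ± 0.484 in cocktail libraries, lower in 5 of 6 mice (log2 fold change -0.34, adjusted p = 0.366, limma). The called gene was Myc, a growth regulator whose protein PIM kinases stabilise, which rose from 3.71 ± 0.497 to 5.14 ± 1.18 FPKM in 6 of 6 mice (log2 fold change 0.37, SE 0.076, adjusted p = 0.0346, limma). Its adjusted p reached 0.293 without the block and lost the call in 9 of 14 alternative settings.

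The last list held 5 other genes with a kinase fold that are known to be inducible, of which 4 were tested and 2 were called higher, with a median of 0.27. Trib1, a pseudokinase that guides proteins to degradation, rose from 20.3 ± 2.35 to 33.8 ± 3.75 FPKM (log2 fold change 0.71, SE 0.053, adjusted p = 1.95e-05, limma). Sgk1, a kinase of ion transport that responds to glucocorticoids and to activity, rose from 43.7 ± 6.83 to 62.4 ± 4.64 FPKM (0.52, SE 0.063, adjusted p = 0.000841, limma). Both were higher in 6 of 6 mice. Camk1g, a calcium-dependent kinase, gave 0.02 (adjusted p = 0.958) and Map3k8, a kinase upstream of ERK, gave -0.08 (adjusted p = 0.850).

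**Figure D5:**
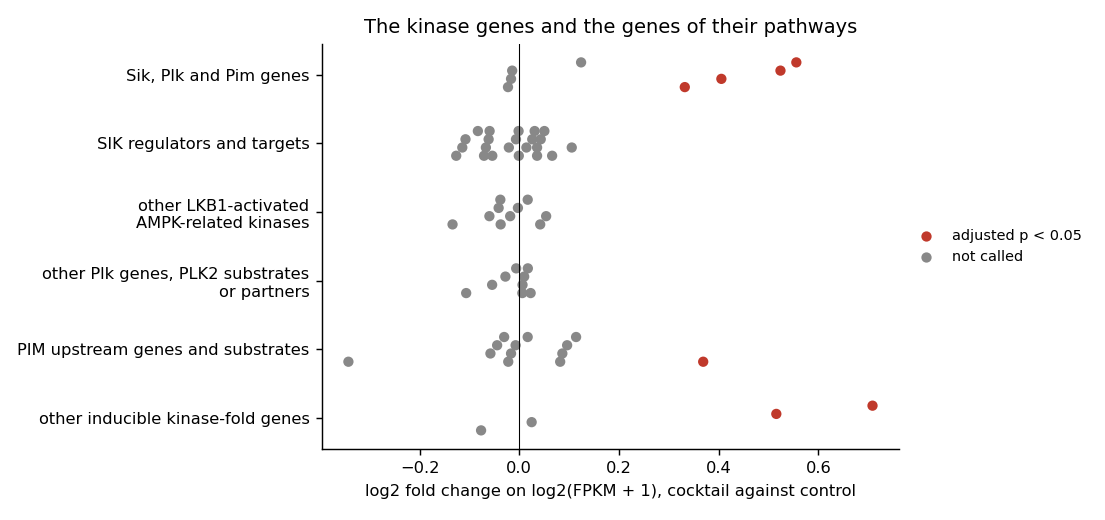
Log2 fold change on log2(FPKM + 1), cocktail against control (horizontal axis), of the 8 kinase genes and of each gene tested in 5 pathway lists (rows; points are spread vertically only for legibility), in red where the adjusted p over all loci is under 0.05. Red points mark 4 of the 8 kinase genes, 1 PIM substrate gene and 2 other inducible kinase-fold genes, and 0 genes of the other 3 lists.

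For the gene with the smallest adjusted p of each family, the 3 loci whose log2(FPKM + 1) was most like it over the 12 libraries were found by Pearson's r, as a description over paired libraries that share the treatment. For Sik1 these were Trib1 (r = 0.969), Arc (0.966), a synaptic immediate-early gene, and Egr1 (0.966), an immediate-early transcription factor. For Plk2 they were the MAP kinase phosphatase gene Dusp1 (r = 0.982), Fos (0.980) and Ier2 (0.979). The log2 fold changes of these genes were larger than that of Plk2, at 0.76, 0.99 and 0.95. Pim3 had another set, with Kdm6b (r = 0.957), a histone demethylase, Atf4 (0.927), a factor of the stress response, and Siah2 (0.922), a ubiquitin ligase. Kdm6b and Siah2 were called, with log2 fold changes of 0.25 (adjusted p = 0.0337, limma) and 0.35 (adjusted p = 0.0108, limma), and Atf4 was not (0.19, adjusted p = 0.165, limma). Kdm6b lost its call in 10 of 15 alternative fits (adjusted p = 0.244 without the block, 0.401 with limma-voom) and Siah2 in 5 of 15 (0.120 without the block). Atf4 passed without mouse 1 (0.24, adjusted p = 0.00458, limma) and with limma-voom (adjusted p = 0.0133).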

How the data were processed

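Poly-A RNA of 12 auditory cortices was sequenced by the authors as strand-specific single reads. Per the labels and the study's methods, the authors removed ribosomal reads with BWA 0.6.1, aligned the rest to mm10 with TopHat 1.4.1 at 1 placement per read, and estimated bias-corrected FPKM with Cufflinks 1.3.0. These FPKM values were deposited with a confidence interval and a status per locus. A further deposited table holds the authors' own comparison by DESeq2 1.6.3 of HTSeq 0.6.1p1 counts (mean, fold change, standard error, statistic and p-values) and was not used.

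The 12032 loci whose mean FPKM was 1 or more entered a limma fit (3.58.1, under R 4.3.3) of log2(FPKM + 1) on treatment, with the mouse as a block and the variance moderated along a trend. Its p-values were adjusted by Benjamini-Hochberg, with a threshold of 0.05. Single values were compared by exact two-sided sign-flip permutation over the 6 mice. The reads behind a value were recovered from its interval, taken as 2 Poisson standard deviations. Of 36413 values under 20 reads, 82.8% came out whole within 0.05. Precision from reads covers counting error only. The mouse numbers in the labels pair the libraries. Deviations from group means correlated between hemispheres of the same mouse at 0.216 to 0.406 (6 pairs, median 0.337). Between mice they correlated at -0.42 to 0.445 (30 pairs, median -0.0714). These ranges overlap, so the correlations alone do not settle the pairing. No 2 libraries of a group were copies. P-values of the blocked fit and of the paired tests measure the spread of within-mouse differences over the 6 mice. In the fit that spread was moderated along the trend over loci. Those of the order of levels measure the spread of within-library differences between genes.

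The 8 genes, the lists and the tests were chosen with earlier results of these data known. The genes named are the 8 kinase genes, every called gene of each pathway list or else its gene with the smallest p, and the 3 loci most like the leading gene of each family. A gene that this rule names is not reported here. Others were named after their values were seen. The fit was tested on simulated data. Alternatives changed the pseudocount, filter, block, trend, scaling, status, unit, threshold and mice. Gene positions follow the files, counted from 1, exon overlaps are from GENCODE M21, and promoters are from RefSeq. Figures used Python 3.11.15 and matplotlib 3.10.9.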

Additional observations from a re-analysis of the deposited data

Results flagged for a closer look

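Among the FPKM values of the 8 genes in each group and their within-mouse differences, 24 groups of 6 values were examined for a single value far from the rest, and 1 was found, where chance flags about 1 in 20 groups and would give 1.2. It was Pim1 in the control library of mouse 1, at 9.25 FPKM against 7.01 to 7.67 in the other 5 control libraries, with a gap to the nearest value of 0.704 of the whole range. The cocktail library of this mouse, at 9.84 FPKM, was the highest of its group.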

How the results depend on the processing

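Sik1, Plk2 and Plk3 kept their direction and stayed under an adjusted p of 0.05 in all 15 alternative fits, with log2 fold changes of 0.53 to 0.61, 0.49 to 0.55 and 0.36 to 0.45. The count of 4 called genes was 3 or 4 throughout. Pim3 kept its direction and lost its call with no replicate block (0.33, adjusted p = 0.209), with limma-voom on recovered reads (0.33, adjusted p = 0.0911), and without mouse 3 or mouse 4. With each mouse left out its log2 fold change ranged from 0.29 to 0.37. In RPM, Pim3 was tested only by unadjusted exact permutation, at 0.32 (p = 0.0625, against 0.03125 in FPKM). The block changed no other call among the 8 genes. Pim1 was 0.26 in RPM (exact permutation p = 0.03125, unadjusted), and voom gave 0.28 (adjusted p = 0.246). Values near 0 changed sign: Sik2 ranged from -0.0581 to 0.0222 with a mouse left out, Pim2 was 0.0106 with voom and 0.00297 in RPM, the difference of Sik2 and Sik3 was 0.0427 in RPM and -0.0533 to 0.0468 with a mouse left out, and the change in the Pim1 share ranged from -0.75 to 0.63 points. Over all loci 180 were called, 88 without the block, and 104 (without mouse 4) to 181 with a mouse left out. Counts were 123 with voom, 123 of 17477 with no filter, 131 of 8522 at a mean FPKM of at least 5 (124 higher and 7 lower, against 147 and 33), 236 at an adjusted p under 0.1, and 173 to 181 under the other settings. Myc, Kdm6b and Siah2 lost their calls in 9 of 14, 10 of 15 and 5 of 15 alternative fits, Atf4 passed in 2 of 15, and the cause was not tested for any of these. Reads limit Pim1 most, at 172 to 419 per library, and the exact test over 6 mice cannot go below 0.03125, nor below 0.0625 over 5.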

Other observations

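The loci whose levels were most like those of Sik2 over the 12 libraries, chosen after its spread between mice was seen, were Ece1 (r = 0.952), D8Ertd82e (r = 0.942) and Gng4 (r = 0.941), by Pearson's r of log2(FPKM + 1). Ece1, an endothelin-converting protease, lay between 20.0 and 22.7 FPKM in the 4 libraries of mice 1 and 2 and between 13.9 and 17.9 in the other 8. Gng4, a G protein subunit gene, lay between 17.3 and 18.2 FPKM in mice 1 and 2 and between 12.4 and 16.01 in the others. For each of the 3 the ranges of mice 1 and 2 and of the other mice did not overlap. A choice by likeness to Sik2 favours such a split, so this is no separate result.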
